A study of Mus musculus with 12 samples.

Results

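RNA sequencing of sorted mammary ductal macrophages compared C57BL/6 mice 1 month after weaning with lactating mice. The comparison used the 6 libraries whose labels give these stages, 3 post-weaning and 3 lactating, of 12 in all; the other 6 libraries, 3 from virgin mice and 3 from mice at day 16.5 of pregnancy, entered the fit so that all stages shared an estimate of the spread. All mice were female and of the C57BL/6 background, and no treatment, genotype or age is given in the labels. Each library was made from 2000 sorted cells with a full-length cDNA kit for small samples, and all were sequenced in 1 run. The labels call the libraries biological replicates and do not say whether a library came from 1 mouse or from several, nor how the cells were gated or on which day of lactation they were taken. All 12672 genes that passed a filter on low counts were tested. Because Lactating replicate 3 held a high share of milk gene counts, lists and called genes are given with it and without it.

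Ductal macrophages lie between the epithelial layers of the mammary duct, where they sample the epithelium and clear dying cells. The lactating gland is filled with milk-secreting alveoli, and after weaning these die and are removed while the gland returns to a simple ductal tree. Macrophages answer signals from such tissue with chemokines, which recruit other leukocytes, with inflammatory cytokines driven by the NF-kB transcription factors, and with growth factors that act on neighbouring cells. They also carry much of the traffic of iron and cholesterol in a tissue: ferroportin exports iron, and the SREBP2 transcription factor turns on cholesterol synthesis when sterols are scarce.

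Total gene counts were 10633156, 9677825 and 11576516 in the post-weaning libraries, against 7304269, 6926273 and 10445732 in the lactating libraries, and 12984 to 13476 genes were detected after weaning, against 10178 to 11462 in lactation. The 26 core macrophage identity genes took 4.15, 4.55 and 4.57% of the counts in the post-weaning libraries, against 4.44, 4.19 and 1.92% in the lactating libraries. Genes of milk proteins and of milk-secreting cells took 0.529, 0.300 and 0.272% after weaning, against 0.278, 0.252 and 8.59% in lactation, so Lactating replicate 3 stood apart in both lists. The milk protein genes Csn1s2b and Wap of this list had no post-weaning count, so its share after weaning came from other members. Across genes Lactating replicate 3 correlated at 0.71 and 0.715 with Lactating replicates 1 and 2, while those correlated at 0.846 with each other and the post-weaning libraries at 0.83 to 0.847. The scaling factors also differed within lactation, at 0.791 and 0.792 in Lactating replicates 1 and 2 and 1.094 in replicate 3, against 1.001 to 1.029 after weaning. In bulk RNA, fewer cells of a type and less RNA per cell cannot be told apart.

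**Figure D1:**
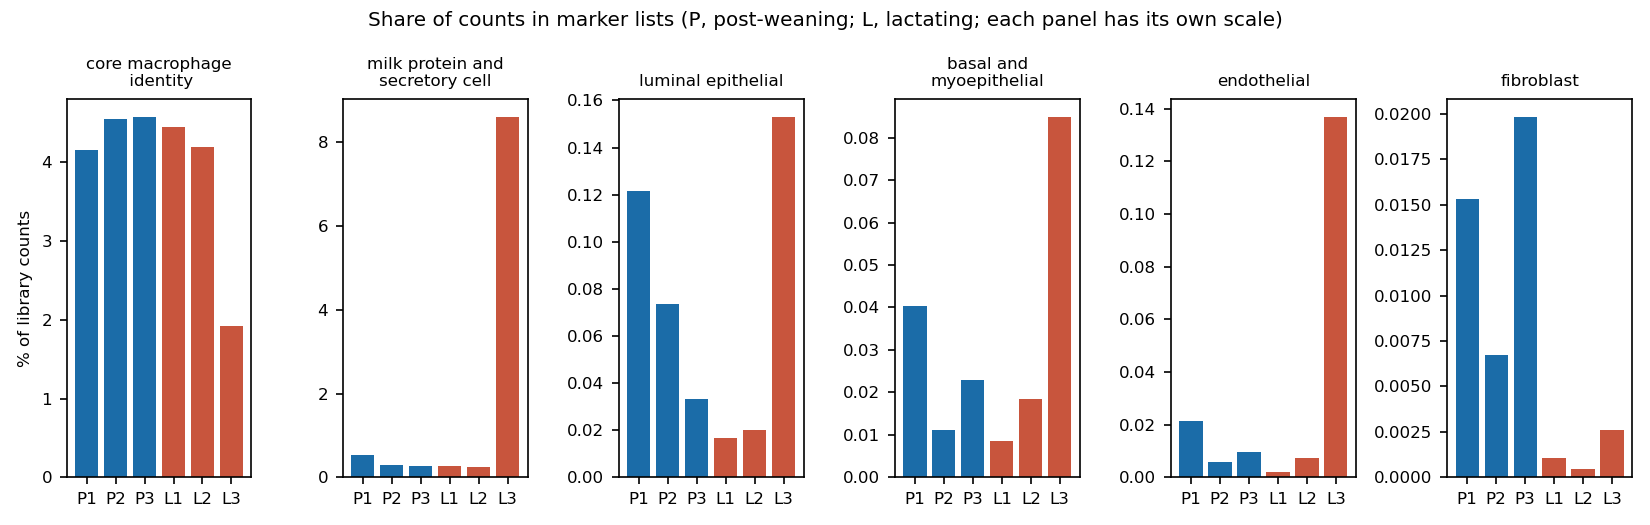
Percent of each library's counts (y axis, its own scale per panel) that fell in 6 marker lists, for the 3 post-weaning (P1 to P3) and the 3 lactating (L1 to L3) libraries; each bar is 1 library. Lactating replicate 3 holds 8.59% milk gene counts and 1.92% core macrophage counts, and fibroblast genes reach 0.0067 to 0.0198% in the post-weaning libraries, against 0.0004 to 0.0026% in the lactating libraries.

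After weaning, 117 of 12672 genes differed from lactation in the edgeR test at an adjusted p under 0.05 (0.923% of the genes tested). Of these, 58 rose (0.458%) and 59 fell (0.466%), and 1912 genes had an unadjusted p under 0.05. When the counts were scaled by library totals alone, 92 rose and 32 fell, the median of all genes moved to 0.29 on the log2 scale against 0.08, and all 117 genes kept their sign. The CPM of the stages did not overlap for any of the 117 genes, against 21.6% of all genes tested without overlap (12.8% higher and 8.76% lower after weaning). Of the 59 genes that fell, 57 were detected in all 6 libraries, against 25 of the 58 that rose, and 21 of the 58 had no count in any lactating library. Detection also differed over all 12672 genes tested: 871 had no count in any lactating library and 123 had none in any post-weaning library.

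Without Lactating replicate 3, 242 of 13426 genes were called (1.8%), of which 112 rose (0.834%) and 130 fell (0.968%). Of the 117 genes, 107 were among these and all 117 kept their sign. The 10 that were lost include Rpl8, a ribosomal protein gene with 148, 99.7 and 116 CPM after weaning, against 226, 252 and 248 CPM in lactation (adjusted p = 0.0406 with replicate 3 and 0.054 without it). A further 135 genes were gained, 56 higher and 79 lower after weaning. Among the 79, Lactating replicate 3 lay below every post-weaning library for 38 genes and between the post-weaning and the other lactating libraries for 33. The counts of called list members given below stand beside 0.923% of all genes with all libraries and 1.8% without Lactating replicate 3.

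**Figure D2:**
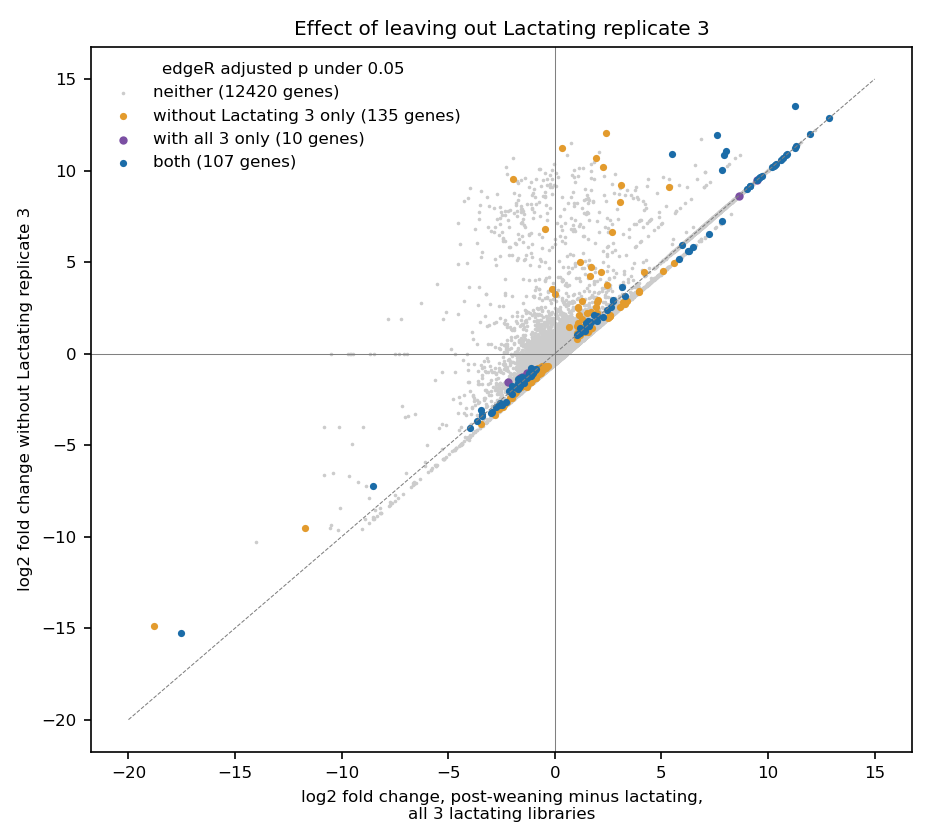
Log2 fold change of each gene, post-weaning minus lactating, with all 3 lactating libraries (x axis) and without Lactating replicate 3 (y axis); each point is 1 gene, coloured by whether its edgeR adjusted p was under 0.05 in both fits (107 genes), with all 3 libraries only (10), without replicate 3 only (135) or in neither (12420). The 107 genes called both ways have the same sign on both axes, and the dashed line marks equal values.

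Of the chemokine genes tested, 6 fell after weaning and none rose. Of 11 CC chemokine genes tested, 4 fell and none rose, with a median log2 fold change of -2.26 against 0.08 over all genes; without Lactating replicate 3 it was 5 of 11, with a median of -2.64 against 0.19. Of 10 CXC chemokine genes, 2 fell and none rose, with a median of -0.87, and without that library 3 fell. CC chemokine genes took 0.412, 0.308 and 0.353% of the counts in the post-weaning libraries, against 1.93, 1.41 and 0.580% in the lactating libraries.

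Ccl9, which encodes a CC chemokine made constitutively by mouse macrophages, had 87, 50.4 and 101 CPM (counts scaled to library size, the unit of all levels here) in the post-weaning libraries, against 754, 803 and 352 CPM in the lactating libraries. All 3 lactating libraries were above all 3 post-weaning ones, and replicate 3 was the lowest of them. Its log2 fold change was -3.001 with a standard error of 0.35 (edgeR adjusted p = 0.00534) and -3.23 ± 0.27 without Lactating replicate 3 (adjusted p = 0.000379). Ccl9 was called whichever of the 6 libraries was left out, in fits that kept the virgin and pregnant libraries. In the fit to the 6 libraries alone it was not called (edgeR adjusted p = 0.108). Ccl9 lies on chromosome 11, 83572917 to 83578636 (GRCm38.p6).

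Ccl4, a chemokine gene that draws monocytes and T cells, had 2061, 1481 and 1764 CPM after weaning, against 13745, 9338 and 3012 CPM in lactation (log2 fold change -2.30 ± 0.48, edgeR adjusted p = 0.0494). Its neighbour Ccl3, a ligand of CCR1, had 1382, 1059 and 1173 CPM after weaning, against 8902, 6731 and 1715 CPM in lactation (log2 fold change -2.26 ± 0.48, adjusted p = 0.053). In both genes the groups did not overlap and Lactating replicate 3 was the lowest lactating library; without it both fell (log2 fold change -2.65 ± 0.31 and -2.64 ± 0.25, adjusted p = 0.00192 and 0.000625). The annotated spans of Ccl3 and Ccl4 overlap on chromosome 11, so reads in the overlap could not be told apart. Ccl5, which attracts T cells, had 8.24, 6.32 and 9.59 CPM after weaning, against 47.1, 80.4 and 38.5 CPM in lactation (log2 fold change -2.78 ± 0.55, adjusted p = 0.0396, and -2.92 ± 0.54, adjusted p = 0.0197 without Lactating replicate 3). Ccl22, a ligand of CCR4 that draws regulatory T cells, had 22.3, 18.6 and 18.4 CPM after weaning, against 107, 188 and 38.4 CPM in lactation (log2 fold change -2.49 ± 0.51, adjusted p = 0.0445, and -2.83 ± 0.36, adjusted p = 0.00328 without Lactating replicate 3), with a wide spread among the lactating libraries and a log2 fold change of -1.85 without Lactating replicate 2 (adjusted p = 0.121). Ccl4, Ccl5 and Ccl22 lost their calls when any library other than Lactating replicate 3 was left out (edgeR adjusted p up to 0.227, 0.196 and 0.202).

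Cxcl3, a ligand of CXCR2 that attracts neutrophils, had similar values in the libraries of each stage. It stood at 50.7, 46.7 and 42.5 CPM in the post-weaning libraries, against 537, 509 and 451 CPM in the lactating libraries. Within each stage its libraries differed little beside the gap between stages, Lactating replicate 3 included. The log2 fold change was -3.42 ± 0.45 (edgeR adjusted p = 0.00572), and -3.43 ± 0.47 without that replicate (adjusted p = 0.00475); it was called in all 6 fits that left out 1 library. Pf4, the platelet factor 4 chemokine gene, had 44.8, 48.3 and 32.5 CPM after weaning, against 194, 103 and 88.7 CPM in lactation (log2 fold change -1.62 ± 0.33, adjusted p = 0.0487, and -1.77 ± 0.32, adjusted p = 0.0178 without Lactating replicate 3), and was called in 1 of those 6 fits, without Lactating replicate 3 (adjusted p up to 0.207 in the others). Cxcl1, another CXCR2 ligand gene, had 2291, 1765 and 2236 CPM after weaning, against 5249.9, 4418 and 1674 CPM in lactation: Lactating replicate 3 was below all post-weaning libraries, and the log2 fold change of -0.85 ± 0.35 (adjusted p = 0.285) became -1.14 ± 0.20 without it (adjusted p = 0.0169). Ccl3 and Cxcl1 were named after their values were seen.

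The promoters of Cxcl3, Cxcl1 and Ccl9, and of the cytokine gene Il6 described next, all from RefSeq (GRCm38.p6) and running from 250 bases before the transcription start to 50 after it, are shown because each holds a match to the kappa B site, the DNA motif of the NF-kB factors. Capitals mark the match. The motif was searched on both strands; in Cxcl3 and Cxcl1 it matched 2 overlapping stretches, marked as 1 run. It was found in 4.51% of 32851 promoter windows of the genome and in 6.31% of the 9799 tested genes with a window, against 4 of 9 CXC chemokine genes (44.4%) and 1 of 7 CC chemokine genes (14.3%). The windows of Ccl3, Ccl22, Pf4, Tnfaip2, Il1rn, Il1a, Il1b, Tnf and Ptgs2, also named in this report, held no match. A match is a description of these letters and not evidence of binding.
Cxcl3 (chr5:90785851-90786150, plus strand): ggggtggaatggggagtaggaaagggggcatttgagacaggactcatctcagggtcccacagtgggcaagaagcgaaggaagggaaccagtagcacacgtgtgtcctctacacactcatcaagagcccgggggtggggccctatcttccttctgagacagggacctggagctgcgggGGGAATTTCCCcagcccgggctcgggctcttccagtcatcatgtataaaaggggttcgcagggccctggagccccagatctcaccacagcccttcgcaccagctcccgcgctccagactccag
Cxcl1 (chr5:90890995-90891294, plus strand): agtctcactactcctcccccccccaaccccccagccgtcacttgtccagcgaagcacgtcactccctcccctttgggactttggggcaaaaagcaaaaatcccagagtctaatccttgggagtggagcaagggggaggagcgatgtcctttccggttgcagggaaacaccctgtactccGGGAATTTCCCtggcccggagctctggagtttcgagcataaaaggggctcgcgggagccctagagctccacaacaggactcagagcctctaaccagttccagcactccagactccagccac
Ccl9 (chr11:83578587-83578886, minus strand): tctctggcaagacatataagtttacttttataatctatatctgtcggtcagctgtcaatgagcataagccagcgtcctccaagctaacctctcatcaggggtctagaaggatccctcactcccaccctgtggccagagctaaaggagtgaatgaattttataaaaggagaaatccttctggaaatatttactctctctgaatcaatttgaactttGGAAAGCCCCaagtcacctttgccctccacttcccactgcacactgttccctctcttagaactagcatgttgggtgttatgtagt
Il6 (chr5:30012864-30013163, plus strand): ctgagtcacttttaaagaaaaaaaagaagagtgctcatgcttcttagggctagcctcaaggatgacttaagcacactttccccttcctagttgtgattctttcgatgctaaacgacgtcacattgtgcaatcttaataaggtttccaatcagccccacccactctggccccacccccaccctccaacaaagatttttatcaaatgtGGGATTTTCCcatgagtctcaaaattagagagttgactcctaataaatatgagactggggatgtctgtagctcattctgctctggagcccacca

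Inflammatory cytokine and NF-kB target genes fell after weaning in few members with all libraries and in more without Lactating replicate 3. Of 42 tested, 3 fell and none rose, with a median log2 fold change of -0.77 against 0.08 over all genes; without that library 15 fell and none rose, with a median of -0.88 against 0.19. The kappa B motif was in the promoters of 16 of the 33 members with a window (48.5%), in a list that was drawn up from known NF-kB targets.

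Malt1, the paracaspase gene that relays antigen and pattern receptor signals to NF-kB, had 161, 129.5 and 151 CPM after weaning, against 427, 659 and 384 CPM in lactation (log2 fold change -1.73 ± 0.22, edgeR adjusted p = 0.00572, and -1.82 ± 0.20, adjusted p = 0.00152 without Lactating replicate 3). Nfkb1, which encodes the p105 precursor of the p50 subunit, had 66.9, 45.1 and 90.2 CPM after weaning, against 211, 292 and 157 CPM in lactation (log2 fold change -1.71 ± 0.32, adjusted p = 0.0352, and -1.83 ± 0.32, adjusted p = 0.0142 without Lactating replicate 3). Tnfaip2, a TNF-induced gene, had 234, 310.3 and 319 CPM after weaning, against 627, 862 and 666 CPM in lactation (log2 fold change -1.32 ± 0.24, adjusted p = 0.0297, and -1.30 ± 0.25, adjusted p = 0.0224 without Lactating replicate 3). In these 3 genes every lactating library was above every post-weaning one. Malt1 was called in all 6 fits that left out 1 library, but not in the fit to the 6 libraries alone (edgeR adjusted p = 0.12). Tnfaip2 was called in 2 of the fits that left out 1 library, without Lactating replicate 3 or 1, and Nfkb1 in 1, without Lactating replicate 3 (adjusted p up to 0.13 and 0.173 in the others).

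The calls on interleukin genes depended on Lactating replicate 3. Il1rn, which encodes the natural antagonist of the interleukin-1 receptor, had 376, 445 and 412 CPM in the post-weaning libraries, against 2693, 3419 and 247 CPM in the lactating libraries. Lactating replicates 1 and 2 were far above all post-weaning libraries and replicate 3 was below them. The log2 fold change was -2.37 ± 0.65 (edgeR adjusted p = 0.12) with all libraries and -2.83 ± 0.19 without replicate 3 (adjusted p = 0.000132). Il6, an acute-phase cytokine gene, had 24.3, 9.08 and 26.6 CPM after weaning, against 202, 221 and 1.05 CPM in lactation, and Ptgs2, the inducible cyclooxygenase gene, had 106, 159 and 139.8 CPM after weaning, against 431, 574 and 2.81 CPM in lactation. In both, Lactating replicate 3 was near 0 while replicates 1 and 2 exceeded every post-weaning value. Without it, both fell (log2 fold change -3.34 ± 0.46 and -1.83 ± 0.27, adjusted p = 0.00475 and 0.00738); with it, neither was called (adjusted p = 0.271 and 0.595).

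Il1a and Il1b, the genes of the interleukin-1 cytokines, and Tnf showed the same arrangement. Tnf had 489, 365 and 452 CPM after weaning, against 1447, 1309 and 361 CPM in lactation, Il1b 3303, 2741 and 3725 CPM after weaning, against 9048, 6621 and 2722 CPM in lactation, and Il1a 1822, 2196 and 1837 CPM after weaning, against 6375, 3894 and 525 CPM in lactation. Lactating replicate 3 was again below every post-weaning library in each of these genes. Their log2 fold changes without it were -1.60 ± 0.26, -1.21 ± 0.25 and -1.34 ± 0.24 (edgeR adjusted p = 0.0117, 0.0314 and 0.0174), against adjusted p = 0.206, 0.283 and 0.53 with it. Il10, whose product restrains inflammation, had 459, 312 and 434 CPM after weaning, against 1183, 1238 and 491 CPM in lactation, without overlap, and passed the test without that library only (log2 fold change -1.53 ± 0.28, adjusted p = 0.0178; -1.27 ± 0.36, adjusted p = 0.129 with it). The genes in these 2 paragraphs other than Il10 were chosen after their values were seen.

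Genes of cholesterol synthesis were among those that fell after weaning. Of 24 tested, 2 fell and none rose, with a median log2 fold change of -1.92 against 0.08 over all genes; without Lactating replicate 3, 6 fell and none rose, with a median of -2.11 against 0.19. Fdps, which encodes farnesyl diphosphate synthase of the mevalonate pathway, had 4.12, 5.71 and 3.89 CPM in the post-weaning libraries, against 69.5, 53.4 and 47.8 CPM in the lactating libraries. All 3 lactating libraries were far above the post-weaning ones. The log2 fold change was -3.63 ± 0.48 (edgeR adjusted p = 0.00572), -3.69 ± 0.49 without replicate 3 (adjusted p = 0.00369), and it was called in all 6 fits that left out 1 library. Fdps was not called in the fit to the 6 libraries alone (edgeR adjusted p = 0.0761). Srebf2, the gene of SREBP2 itself, had 20.8, 13.2 and 8.38 CPM after weaning, against 97.9, 91.9 and 59.2 CPM in lactation (log2 fold change -2.56 ± 0.49, adjusted p = 0.0352, and -2.69 ± 0.49, adjusted p = 0.0182 without Lactating replicate 3), and lost its call when any library other than Lactating replicate 3 was left out (adjusted p up to 0.181). Fdps lies on chromosome 3, 89093588 to 89101967 and Srebf2 on chromosome 15, 82147269 to 82205379.

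Other genes of the pathway passed the test without Lactating replicate 3 only. Cyp51, the lanosterol demethylase gene, had 69, 55.5 and 41.7 CPM after weaning, against 421, 444 and 28.1 CPM in lactation (log2 fold change -2.90 ± 0.30, edgeR adjusted p = 0.000869 without replicate 3; -2.43 ± 0.71, adjusted p = 0.148 with it). Msmo1, the methylsterol monooxygenase gene, had 65.8, 45.4 and 43.6 CPM after weaning, against 485, 381 and 81.8 CPM in lactation, without overlap (adjusted p = 0.00334 without replicate 3 and 0.0577 with it). In both genes Lactating replicate 3 stood nearer to the post-weaning libraries than to the other lactating ones. Sc5d, the sterol desaturase gene of the pathway, and Insig1, which holds SREBP proteins in the endoplasmic reticulum, had adjusted p = 0.0248 and 0.0342 without it, against 0.169 and 0.0914 with it. These 4 genes were named after their values were seen.

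Hmgcs1, which encodes the enzyme that makes the HMG-CoA of this pathway, had 71.2, 36.7 and 39.8 CPM after weaning, against 131, 108 and 105 CPM in lactation, without overlap (log2 fold change -1.22 ± 0.35, edgeR adjusted p = 0.14, and -1.21 ± 0.38, adjusted p = 0.146 without Lactating replicate 3). Its promoter is shown because it holds a match to the sterol regulatory element TCACNCCAC, searched on both strands. Of the 17 cholesterol genes with a RefSeq promoter window, Hmgcs1 was the 1 with a match (5.88%). The motif was found in 1.36% of the 9799 tested genes with a window and in 1.24% of 32851 windows. Capitals mark the match.
Hmgcs1 (chr13:119690101-119690400, plus strand): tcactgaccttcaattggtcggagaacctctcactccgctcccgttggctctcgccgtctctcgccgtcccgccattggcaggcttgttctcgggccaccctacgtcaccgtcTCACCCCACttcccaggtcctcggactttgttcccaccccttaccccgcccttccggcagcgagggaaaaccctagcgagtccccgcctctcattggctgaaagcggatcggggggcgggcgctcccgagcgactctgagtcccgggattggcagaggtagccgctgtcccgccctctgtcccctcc

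**Figure D3:**
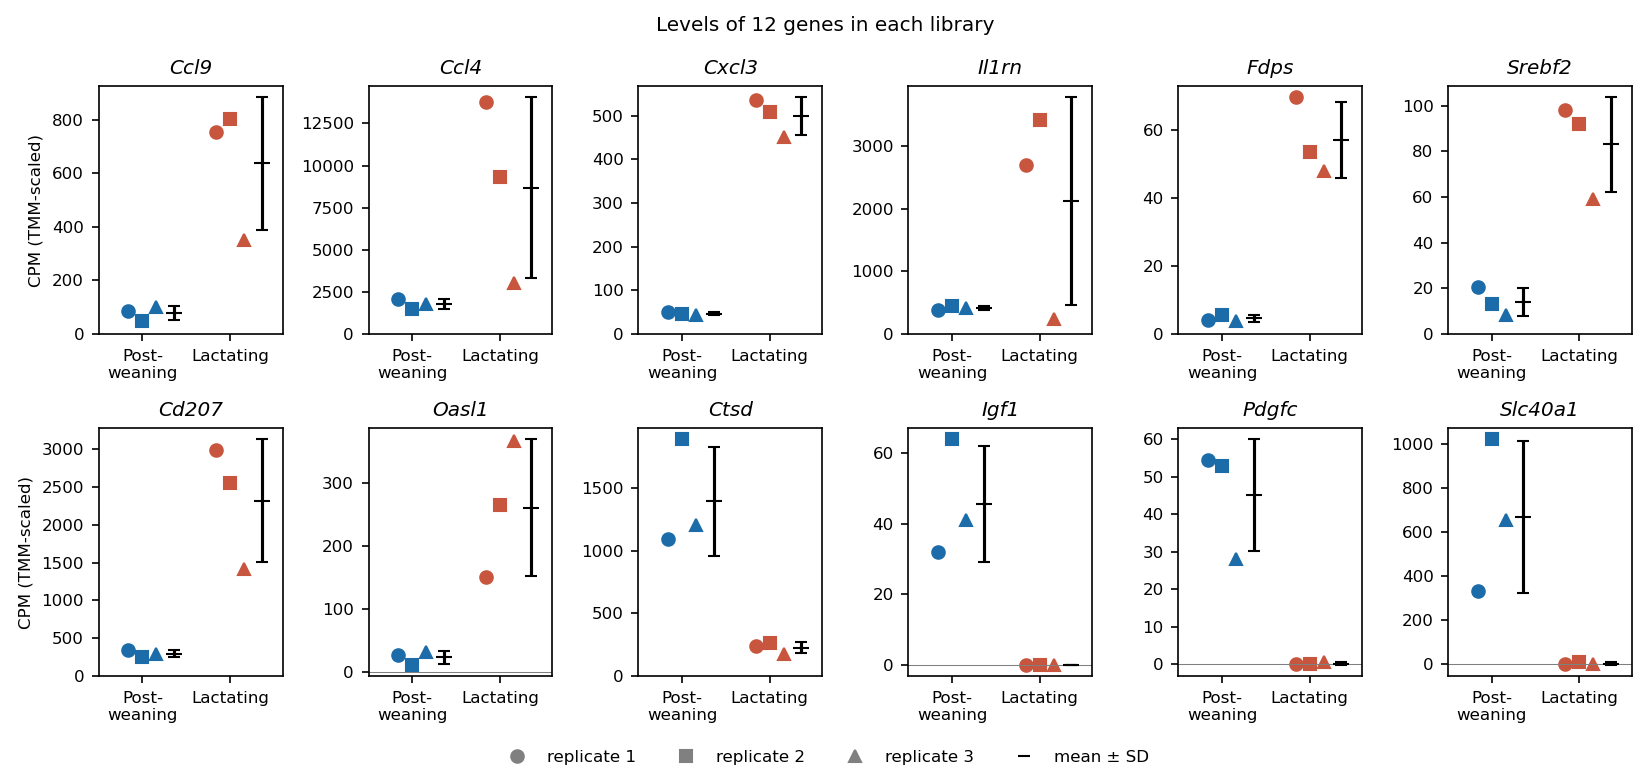
CPM (y axis, TMM-scaled, linear, its own scale per panel) of 12 genes in the 3 post-weaning libraries (blue, left) and the 3 lactating libraries (red, right); symbols stand for replicates 1 to 3 and the black mark is the mean with its SD. Cxcl3 and Fdps separate the stages with all 3 libraries, Il1rn separates them only in replicates 1 and 2 of lactation, and Igf1 has no count in any lactating library.

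Langerin, antiviral and antigen presentation genes differed in how they stood to Lactating replicate 3. Cd207, which encodes the C-type lectin langerin, had 345, 257 and 287 CPM after weaning, against 2992, 2558 and 1413 CPM in lactation. The lactating libraries were all several fold above the post-weaning ones, with replicate 3 the lowest of them. The log2 fold change of Cd207 was -2.97 ± 0.35 (edgeR adjusted p = 0.00534) and -3.16 ± 0.29 without replicate 3 (adjusted p = 0.000608), and it was called in all 6 fits that left out 1 library. Cd207 was not called in the fit to the 6 libraries alone (edgeR adjusted p = 0.0761). It was the 1 C-type lectin receptor gene of 17 that passed the test with all libraries, with a list median of -0.13, and without Lactating replicate 3, 1 rose and 1 fell, with a median of -0.52. Cd207 lies on chromosome 6, 83671207 to 83677857.

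Of 39 type I interferon-stimulated genes, 2 fell and none rose, against 0.923% of all genes called, with a list median of -0.39. Without Lactating replicate 3 the count was 3, with a median of -0.24 against 0.19. Oasl1, which in mice restrains the translation of the interferon regulator IRF7, had 27.1, 11.9 and 31.5 CPM after weaning, against 150.4, 265 and 367 CPM in lactation (log2 fold change -3.47 ± 0.46, edgeR adjusted p = 0.00572, and -3.07 ± 0.45, adjusted p = 0.00695 without Lactating replicate 3). Here Lactating replicate 3 was the highest, and the call held in all 6 fits that left out 1 library. The call on Oasl1 was lost in the fit to the 6 compared libraries alone (edgeR adjusted p = 0.108). Rsad2, the gene of the antiviral enzyme viperin, had 43.3, 56.8 and 45.3 CPM after weaning, against 235, 485 and 189 CPM in lactation (log2 fold change -2.64 ± 0.51, adjusted p = 0.0386, and -2.83 ± 0.51, adjusted p = 0.0171 without Lactating replicate 3). It was called in 2 of those fits, without Lactating replicate 3 or 1 (adjusted p up to 0.165 in the others). Of 25 interferon-gamma response genes, Gbp7, a guanylate-binding protein gene, rose and none fell. The counts were equal without Lactating replicate 3, while the list median moved from -0.19 to 0.52. Gbp7 had 45.2, 56.6 and 59.7 CPM after weaning, against 17.3, 20.1 and 18.4 CPM in lactation (log2 fold change 1.53 ± 0.31, adjusted p = 0.0441, and 1.59 ± 0.35, adjusted p = 0.0452 without Lactating replicate 3), and lost its call without any library other than Lactating replicate 3 (adjusted p up to 0.181).

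None of 17 MHC class II presentation genes passed the test with all libraries, and their median was -0.12; without Lactating replicate 3, 4 fell, with a median of -0.46 against 0.19. H2-Aa, a class II alpha chain gene, had 13314, 12259 and 14792 CPM after weaning, against 24665, 24284 and 8771 CPM in lactation, and the costimulatory gene Cd86 had 1241, 1343 and 956 CPM after weaning, against 2690.3, 3294 and 683 CPM in lactation. In both, replicates 1 and 2 of lactation were above and replicate 3 below all post-weaning libraries. Without replicate 3 their log2 fold changes were -0.80 ± 0.16 and -1.28 ± 0.21 (edgeR adjusted p = 0.0264 and 0.0127), against adjusted p = 0.516 and 0.354 with it. The other members that then fell were H2-Ab1 and H2-Eb1, which encode class II beta chains (adjusted p = 0.0343 and 0.0135); all 4 were named after their values were seen. Cd74, the invariant chain gene, had 82589, 76244 and 91682 CPM after weaning, against 124620, 115470 and 31319 CPM in lactation and was not called either way (adjusted p = 0.937 with replicate 3 and 0.155 without it).

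**Figure D4:**
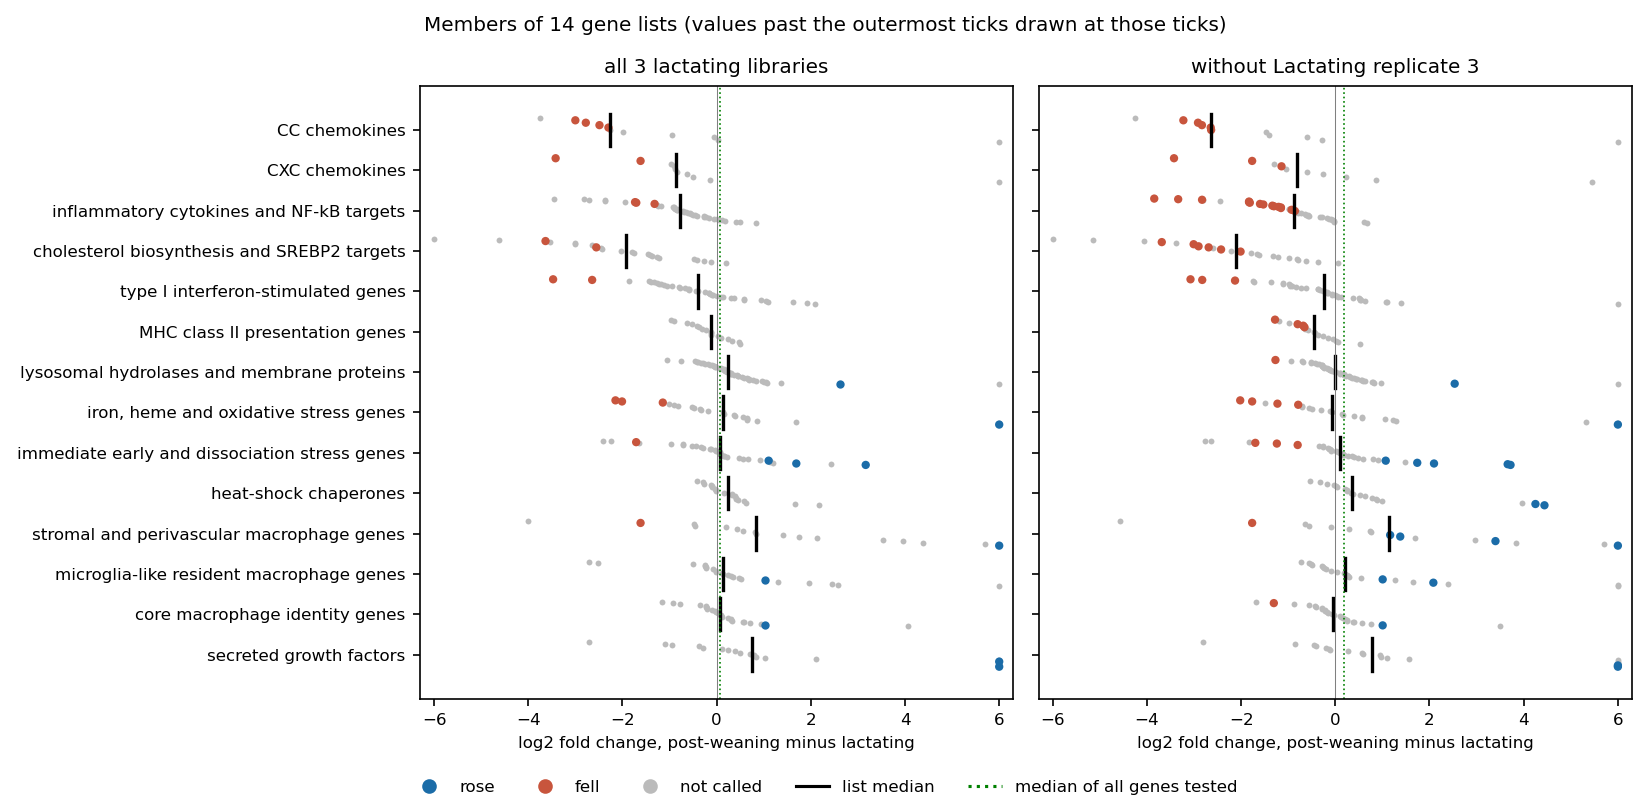
Log2 fold change, post-weaning minus lactating (x axis), of the tested members of 14 gene lists (rows), with all lactating libraries (left) and without Lactating replicate 3 (right); each point is 1 gene, blue or red where it rose or fell in the edgeR test, values past the outermost ticks are drawn at those ticks, black bars are list medians and the dotted line is the median of all genes. The medians of the CC chemokine (-2.26) and cholesterol (-1.92) lists lie farthest to the left with all libraries, and 15 inflammatory genes are called in the right panel against 3 in the left.

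Genes of iron handling and of the defence against oxidants moved in both directions. Of 23 tested, 1 rose and 3 fell after weaning, against 0.923% of all genes called, with a list median of 0.13. The counts without Lactating replicate 3 were 1 and 4, with a median of -0.08. Slc40a1, which encodes the iron exporter ferroportin, had 331, 1020 and 655 CPM in the post-weaning libraries, against 0.173, 9.32 and 0 CPM in the lactating libraries. Every post-weaning library was many times above every lactating library. Its log2 fold change was 7.83 ± 1.28 (edgeR adjusted p = 0.0191), with virgin libraries at 96.3 ± 39.8 and pregnant libraries at 183 ± 16 CPM (SD, n = 3 each). Leaving out Lactating replicate 3 gave 7.22 ± 0.99 (adjusted p = 0.00475), and nearly all lactating counts came from replicate 2, without which 1 lactating count was left (adjusted p = 0.000475). Leaving out Post-weaning replicate 2 or 3 ended the call (adjusted p up to 0.079).

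Slc11a2, the gene of the iron importer DMT1, had 48.1, 47.1 and 53.1 CPM after weaning, against 163, 189 and 245 CPM in lactation (log2 fold change -2.01 ± 0.29, edgeR adjusted p = 0.00944, and -1.77 ± 0.29, adjusted p = 0.0118 without Lactating replicate 3). Srxn1, which encodes sulfiredoxin, had 135, 149 and 158 CPM after weaning, against 624, 622 and 711 CPM in lactation (log2 fold change -2.15 ± 0.32, adjusted p = 0.00991, and -2.02 ± 0.33, adjusted p = 0.0117 without Lactating replicate 3). Txnrd1, the thioredoxin reductase gene, had 416, 439 and 340.4 CPM after weaning, against 903, 1047 and 691 CPM in lactation (log2 fold change -1.14 ± 0.20, adjusted p = 0.0263, and -1.23 ± 0.17, adjusted p = 0.00475 without Lactating replicate 3). The stages did not overlap in any of the 3, and Lactating replicate 3 was the highest lactating library for Slc11a2 and Srxn1. Leaving out any 1 post-weaning library ended these calls (adjusted p up to 0.0785, 0.0785 and 0.135; for Txnrd1 also leaving out Lactating replicate 2). Fth1, the ferritin heavy chain gene, averaged 9445 ± 245 CPM after weaning, against 16591 ± 769 CPM in lactation (SD, n = 3 each), and passed the test without Lactating replicate 3 only (adjusted p = 0.00954, against 0.0635 with it); it was named after its values were seen.

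Of 48 lysosomal genes, Ctsd rose and none fell, against 0.923% of all genes called, with a list median of 0.23. Without Lactating replicate 3, 1 rose and 1 fell, against 1.8% of all genes called. Ctsd, which encodes the protease cathepsin D, had 1088, 1891 and 1202 CPM after weaning, against 237, 265 and 179 CPM in lactation. The lowest post-weaning library was several times the highest lactating one. The log2 fold change of Ctsd was 2.62 ± 0.39 (edgeR adjusted p = 0.0107), 2.53 ± 0.42 without Lactating replicate 3 (adjusted p = 0.0118), and the call was lost without Post-weaning replicate 2 (adjusted p = 0.0555). Without Lactating replicate 3, Acp5, the tartrate-resistant acid phosphatase gene, fell: it had 1304, 1362 and 1323 CPM after weaning, against 3221, 3483 and 1547 CPM in lactation (log2 fold change -1.27 ± 0.13, adjusted p = 0.000803, against 0.0991 with it). Of 21 matrix remodelling genes none passed with all libraries. Without that library Mmp12, the macrophage elastase gene, and Plau, the urokinase gene, fell (adjusted p = 0.000803 and 0.0298, against 0.178 and 0.0568 with it), Mmp12 with 3978, 2961 and 3456 CPM after weaning, against 10754, 10449 and 2946 CPM in lactation. These 3 genes were named after their values were seen.

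Secreted growth factor genes rose after weaning in 2 of 20 tested members, and none fell, with a median of 0.75. Without Lactating replicate 3 the counts were equal and the median was 0.77. Igf1, the gene of an insulin-like growth factor that many tissues secrete, had 32, 64 and 41.1 CPM in the post-weaning libraries, and no count in any of the 3 lactating libraries. It was at least 339-fold higher after weaning in pooled counts, against a floor of 3 counts over the lactating libraries (edgeR adjusted p = 0.00294), and at least 168-fold without Lactating replicate 3, which held much of the lactating depth (adjusted p = 0.000803). It was called in all 6 fits that left out 1 library, and stood at 8.2 ± 3.33 CPM in virgin and 11.2 ± 2.88 CPM in pregnant libraries (SD, n = 3 each). Pdgfc, the gene of a platelet-derived growth factor that acts on mesenchymal cells, had 54.5, 52.9 and 28 CPM after weaning, against 0, 0 and 0.527 CPM in lactation (log2 fold change 7.60 ± 0.95, adjusted p = 0.00572, and 0.000379 without Lactating replicate 3), and was also called in all 6 of those fits. Its 6 lactating counts all came from replicate 3. No gene, Igf1 and Pdgfc included, was called as higher in the fit to the 6 compared libraries alone. Igf1 lies on chromosome 10, 87858265 to 87937047 and Pdgfc on chromosome 3, 81036416 to 81214040.

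Genes of stromal and perivascular macrophages had a median of 0.84 over 17 tested members, of which Igf1 rose and Pf4 fell; without Lactating replicate 3, 4 rose and 1 fell, with a median of 1.15 against 0.19. Mrc1, the mannose receptor gene that marks these cells, had 129, 183 and 166 CPM after weaning, against 21.7, 9.69 and 0 CPM in lactation. The stages were far apart and Lactating replicate 3 had no count. Its log2 fold change was 3.95 ± 1.09 (edgeR adjusted p = 0.123), and 3.40 ± 0.47 without that library (adjusted p = 0.00494). Selenop, which encodes the selenium carrier selenoprotein P, had 4123, 5502 and 4723 CPM after weaning, against 2004, 1836 and 454 CPM in lactation, and Fcgrt, the neonatal Fc receptor gene, had 179, 216 and 289 CPM after weaning, against 93.6, 119 and 43.9 CPM in lactation. Both rose without Lactating replicate 3 (adjusted p = 0.0285 and 0.0398), did not pass with it (adjusted p = 0.117 and 0.0749) and were named after their values were seen. Lyve1, another marker of these cells, did not pass the filter on low counts.

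Of 23 genes of microglia-like resident macrophages, Cx3cr1, the receptor of fractalkine, rose and none fell, and 2 rose without Lactating replicate 3. It had 421, 358 and 480.3 CPM after weaning, against 211, 226 and 181 CPM in lactation, and 384 ± 10.7 CPM in virgin libraries (SD, n = 3). The lowest post-weaning library was above the highest lactating one by more than the range of the lactating libraries. The log2 fold change was 1.03 ± 0.20 (edgeR adjusted p = 0.0396) and 1.01 ± 0.21 without Lactating replicate 3 (adjusted p = 0.0364), and the call was lost without any library other than Lactating replicate 3 (adjusted p up to 0.165). P2ry12, an ADP receptor gene of resident macrophages, had 137, 118 and 115 CPM after weaning, against 23, 37.8 and 1.67 CPM in lactation and rose without Lactating replicate 3 only (log2 fold change 2.08 ± 0.35, adjusted p = 0.0125; adjusted p = 0.135 with it); it was named after its values were seen.

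The largest rises were of genes at or near 0 in lactation. Of the 58 genes that rose, 21 had no count in any lactating library. All 21 were detected in every virgin and every pregnant library. Genes without a lactating count pass the filter on low counts only through the other stages, which favours such detection. The same share over all genes without a lactating count was not taken. The mean level of the 21 genes after weaning ran from 4.44 to 85.0 CPM, with a median of 14.0. Over all genes tested, 353 had no count in lactation and at least 1 in every post-weaning library, against 13 the other way round. Over the whole table, 12984 to 13476 genes were detected after weaning, against 10178 to 11462 in lactation, and the part of this in the rises was not tested. Besides Igf1, these include Krt19, the gene of an epithelial keratin, with 147, 74.7 and 33 CPM after weaning (at least 636-fold higher, edgeR adjusted p = 0.00754; 316-fold and 0.0112 without Lactating replicate 3). Fam20c, the secretory pathway kinase gene, had 42.5, 36.7 and 8.12 CPM (at least 215-fold, adjusted p = 0.00534, and 107-fold and 0.00383 without that library), and Sox4, a transcription factor gene, had 34.7, 32.4 and 15.8 CPM (at least 206-fold, adjusted p = 0.00572, and 102-fold and 0.00475 without that library). Gng12, a G protein gamma subunit gene, Lysmd2, Actr6, an actin-related protein gene, and Ubxn2b were at least 162, 158, 144 and 131 times higher (adjusted p = 0.0107, 0.0107, 0.0227 and 0.0108, and 0.0117, 0.0102, 0.0201 and 0.0117 without Lactating replicate 3). Without that library these bounds were 80.5, 78.2, 71.4 and 65.2 times. All bounds cover counting error only.

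Igfbp5, which encodes an IGF-binding protein, had 259, 81.9 and 59 CPM in the post-weaning libraries, against 0, 0 and 0.0878 CPM in the lactating libraries. Its single lactating count gave a pooled ratio of 3022 with a 95% counting interval of 542 to 119390 (edgeR adjusted p = 0.00534, and 0.00954 without Lactating replicate 3). Zfp959, a zinc finger gene, had 2 lactating counts and a ratio of 269.9 (95% counting interval 74.5 to 2233, adjusted p = 0.00572, and 0.0127 without Lactating replicate 3). That count and both counts of Zfp959 were in Lactating replicate 3, and Post-weaning replicate 1 was the highest library for Igfbp5 and Krt19. Igf1, Igfbp5, Zfp959, Krt19, Fam20c, Sox4, Gng12 and Lysmd2 were called in all 6 fits that left out 1 library, and none of these 8 in the fit to the 6 libraries alone (adjusted p = 0.0661 to 0.15). The calls on Krt19, Zfp959 and Igfbp5 were also lost with limma-voom (adjusted p = 0.0897, 0.114 and 0.0551) and with its quality weights (0.104, 0.157 and 0.0609), that on Fam20c with quality weights (0.0557) and that on Gng12 with the replicate block (0.0541). Ubxn2b lost its call without Post-weaning replicate 2 and Actr6 without any 1 post-weaning library (adjusted p up to 0.051 and 0.0959).

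Of the fibroblast, luminal, endothelial and basal marker genes tested, Krt19 was the 1 called with all libraries, and 1 endothelial gene rose without Lactating replicate 3. Fibroblast genes took 0.0153, 0.0067 and 0.0198% of the counts after weaning, against 0.0011, 0.0004 and 0.0026% in lactation, and 7 of 12 tested were higher after weaning without overlap, against 12.8% of all genes. None of the 12 passed the edgeR test. Col1a1 and Col1a2, the collagen I genes that define fibroblasts, had 5.13, 1.22 and 4.06 CPM and 8.7, 1.63 and 30.0 CPM after weaning, against no count in any lactating library. Luminal epithelial genes took 0.122, 0.0735 and 0.0334% after weaning, against 0.0169, 0.0200 and 0.153% in lactation, and 12 of 20 were higher without overlap. Krt18, a luminal keratin gene, had 275, 156 and 71.4 CPM after weaning, against 19.2, 23.6 and 39.1 CPM in lactation (adjusted p = 0.105). Endothelial genes took 0.0215, 0.0059 and 0.0097% after weaning, against 0.0019, 0.0074 and 0.137% in lactation. Of 17 endothelial and 10 basal genes tested, none was higher without overlap with all libraries. Without Lactating replicate 3, 4 endothelial and 1 basal gene were higher without overlap, as were 15 luminal and 7 fibroblast genes. This stands against 2467 of all 12672 genes. The endothelial median moved from -1.63 to 2.10 and the basal median from -0.40 to 0.69 without that library. The part of these cells in the rises of Igf1, Pdgfc, Igfbp5, Krt19 and the other genes near 0 in lactation was not tested.

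Of 20 milk protein and secretory cell genes tested, 1 fell with all libraries and 3 without Lactating replicate 3, and none rose. The list median was -3.67 with all libraries and 0.44 without that library, so its direction rested on it. Without that library, 7 members were higher after weaning without overlap and 7 lower, so that median does not describe the milk protein genes below. Csn1s2b, a casein gene, had no count in any post-weaning library, against 460.4, 462 and 5493 CPM in lactation. It was at least 32229-fold lower after weaning over the pooled counts, against a floor of 3 counts over the post-weaning libraries (edgeR adjusted p = 0.0406). Lactating replicate 3 carried most of that, and without it the bound was 4966-fold (adjusted p = 0.0135). Wap, the whey acidic protein gene, also had no post-weaning count, against 399, 307 and 14816 CPM in lactation, and fell without replicate 3 only (adjusted p = 0.00789, 0.0535 with it), as did Glycam1 (adjusted p = 0.0188, 0.0535 with it); these 2 genes were named after their values were seen. Csn2, the beta-casein gene, had 39.8, 47.1 and 17.7 CPM after weaning, against 286, 243 and 14394 CPM in lactation and did not pass either way (adjusted p = 0.0778 with replicate 3 and 0.0949 without it). Leaving out any 1 post-weaning library ended the call on Csn1s2b (adjusted p up to 0.165). Fabp3, the heart-type fatty acid-binding protein gene, had 0, 0.306 and 0.0864 CPM after weaning, against 22, 21.9 and 109 CPM in lactation (log2 fold change -8.53 ± 1.63, adjusted p = 0.0352); Lactating replicate 3 was its highest library, as in the milk genes, and its log2 fold change was -7.26 ± 1.48 without that library (adjusted p = 0.03). Its call too was lost without any 1 post-weaning library, with a log2 fold change of -9.84 without Post-weaning replicate 2 (adjusted p = 0.139).

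Genes of the list of immediate early and dissociation stress genes moved in both directions. The part of cell dissociation in their values, those of Jun and Ier3 below included, was not tested. Of 35 tested, 3 rose and 1 fell, against 0.923% of all genes called, with a list median of 0.06. Without Lactating replicate 3, 5 rose and 3 fell, against 1.8% of all genes called. Fos, which encodes an AP-1 subunit, had 2132, 1672 and 1528 CPM after weaning, against 618, 492 and 541 CPM in lactation (log2 fold change 1.69 ± 0.22, edgeR adjusted p = 0.00572, and 1.74 ± 0.23, adjusted p = 0.00369 without Lactating replicate 3). Dusp6, which encodes a phosphatase of the kinase ERK, had 140.2, 197 and 157 CPM after weaning, against 14.2, 13 and 27.6 CPM in lactation (log2 fold change 3.17 ± 0.38, adjusted p = 0.00534, and 3.66 ± 0.37, adjusted p = 0.000803 without Lactating replicate 3). Both separated the stages widely and were called in all 6 fits that left out 1 library. In the fit to the 6 compared libraries alone neither was called (edgeR adjusted p = 0.108 for Fos and 0.0761 for Dusp6). Zfp36l2, an mRNA-decay factor gene, had 307, 403 and 365 CPM after weaning, against 177, 180 and 144 CPM in lactation (log2 fold change 1.10 ± 0.18, adjusted p = 0.0196, and 1.07 ± 0.18, adjusted p = 0.0135 without Lactating replicate 3). Dusp5, another ERK phosphatase gene, went the other way, with 74.2, 65.3 and 48.8 CPM after weaning, against 172, 254 and 190.1 CPM in lactation (log2 fold change -1.71 ± 0.27, adjusted p = 0.0133, and -1.70 ± 0.28, adjusted p = 0.0118 without Lactating replicate 3). Zfp36l2 and Dusp5 lost their calls without Post-weaning replicate 2 or 3 (adjusted p up to 0.112 and 0.0973).

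Jun, the partner gene of Fos in AP-1, and the inducible heat-shock genes rose without Lactating replicate 3 only. Jun had 428, 344 and 271 CPM after weaning, against 111, 58.3 and 306 CPM in lactation (log2 fold change 2.10 ± 0.40, edgeR adjusted p = 0.0224 without replicate 3; adjusted p = 0.323 with it). Hspa1a, an HSP70 chaperone gene, had 497, 282 and 236 CPM after weaning, against 22, 15 and 283 CPM in lactation (log2 fold change 4.25 ± 0.49, adjusted p = 0.00181; adjusted p = 0.395 with it). In both, Lactating replicate 3 was within the post-weaning range and replicates 1 and 2 far below it. Hspa1b, whose sequence is nearly identical to that of Hspa1a so that their counts are uncertain, had 908, 512 and 379 CPM after weaning, against 52, 5.12 and 343 CPM in lactation (adjusted p = 0.025, 0.335 with replicate 3), and Ier3, a stress-response gene, rose likewise (adjusted p = 0.0189, 0.156 with replicate 3). Of 20 heat-shock chaperone genes, none passed with all libraries and 2 rose without replicate 3; these 4 genes were named after their values were seen.

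Lipid genes gave few calls: without Lactating replicate 3, 1 fatty acid synthesis and 2 lipid-handling genes rose and none fell. Scd1, the stearoyl-CoA desaturase gene, rose among 13 fatty acid synthesis genes, with 58.9, 33.9 and 18.9 CPM after weaning, against 0.52, 0.731 and 0.527 CPM in lactation (log2 fold change 5.96 ± 0.87, edgeR adjusted p = 0.00987, and 5.93 ± 1.01, adjusted p = 0.0135 without Lactating replicate 3). The call on Scd1 was lost in the fit to the 6 compared libraries alone (edgeR adjusted p = 0.0761), but held in all 6 fits that left out 1 library. Angptl4, which encodes an inhibitor of lipoprotein lipase, rose among 25 lipid-handling genes, with 14.7, 32.6 and 55.3 CPM after weaning, against 0, 1.28 and 0 CPM in lactation (log2 fold change 6.49 ± 1.21, adjusted p = 0.0341). It was called in 2 of those 6 fits, without Lactating replicate 3 (log2 fold change 5.81 ± 1.07, adjusted p = 0.0182) and without Lactating replicate 2, which held all 7 of its lactating counts (adjusted p = 0.013, and up to 0.117 in the other fits). Plin2, the lipid droplet coat gene, had 614, 1165 and 1209 CPM after weaning, against 284, 363 and 782 CPM in lactation, and rose without Lactating replicate 3 only (adjusted p = 0.0135, 0.212 with it); it was named after its values were seen.

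Further falls were those of Edn1, which encodes the vasoconstrictor peptide endothelin-1, and Ccnd2, the cyclin D2 gene. Edn1 had 20.9, 10.4 and 9.42 CPM after weaning, against 208, 270.1 and 156 CPM in lactation (log2 fold change -3.96 ± 0.73, edgeR adjusted p = 0.032, and -4.08 ± 0.75, adjusted p = 0.0182 without Lactating replicate 3), and was called in 2 of the 6 fits that left out 1 library, without Lactating replicate 3 or 1 (adjusted p up to 0.173 in the others). Ccnd2 had 17.1, 7.75 and 10.4 CPM after weaning, against 121, 123 and 136 CPM in lactation (log2 fold change -3.43 ± 0.55, adjusted p = 0.0174, and -3.31 ± 0.58, adjusted p = 0.0142 without Lactating replicate 3), and lost its call without Post-weaning replicate 2 or 3 (adjusted p up to 0.111). In both genes the lactating libraries were well above the post-weaning ones. Ccnd2 was the 1 of 50 cell cycle genes that passed, with or without Lactating replicate 3, against 0.923% and 1.8% of all genes. The proliferation marker Mki67 had 4.67, 36.7 and 17.7 CPM after weaning, against 25.6, 29.1 and 35.8 CPM in lactation, with overlap (adjusted p = 0.744).

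Of 26 genes that define the macrophage, Cx3cr1 was the 1 called with all libraries. Adgre1, which encodes F4/80, averaged 742 ± 59 CPM after weaning and 715 ± 394 CPM in lactation (SD, n = 3 each; edgeR adjusted p = 0.971). Csf1r, the CSF-1 receptor gene, averaged 1078 ± 156 CPM after weaning and 1269 ± 676 CPM in lactation (adjusted p = 0.834 by edgeR), and Cd68 averaged 1199 ± 53.1 CPM after weaning and 1209.7 ± 554 CPM in lactation (adjusted p = 0.996). For these genes Lactating replicate 3 was the lowest library, at 263, 489 and 569.7 CPM. Without that library, 10 of the 26 genes were lower after weaning without overlap and 5 higher, against 2 and 4 with it. Over all 12672 genes, 2141 were lower and 2467 higher without overlap when that library was left out. The list median moved from 0.07 to -0.04. Itgax, the CD11c gene, averaged 228 ± 44.2 CPM after weaning and 389.9 ± 103 CPM in lactation (adjusted p = 0.242), and Itgam 4.15 ± 3.57 and 9.36 ± 12.7 CPM (adjusted p = 0.772). Without replicate 3, Cd14, the lipopolysaccharide co-receptor gene, named after its values were seen, fell (log2 fold change -1.31 ± 0.20, adjusted p = 0.00738, 0.346 with it). None of the 72 oxidative phosphorylation, 28 glycolysis and hypoxia, 23 endoplasmic reticulum stress or 21 TGF-beta pathway genes tested was called with or without replicate 3. The nuclear noncoding RNA Malat1 had 10198, 6189.8 and 5679.6 CPM after weaning, against 12075, 16676 and 37476 CPM in lactation (adjusted p = 0.102).

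The other stages place the called genes. For all 59 genes that fell, the lactating mean was above both the virgin and the pregnant mean, against 32.9% of all genes tested; for 56 of the 58 genes that rose it was below both, against 40.4%. The post-weaning mean was within 2-fold of the virgin mean for 54 of the 59 genes that fell (91.5%) and 42 of the 58 that rose (72.4%), against 76.4% of all genes. The choice of genes by their difference from lactation favours such counts, and no test was made of them. Cxcl3 averaged 46.7 ± 4.11 CPM after weaning, 31.6 ± 20.1 CPM in virgin and 15 ± 5.07 CPM in pregnant libraries, against 499 ± 43.7 CPM in lactation. Cd207 averaged 297 ± 44.9 CPM after weaning, 288 ± 87.8 CPM in virgin and 110.2 ± 28.5 CPM in pregnant libraries, against 2321 ± 816 CPM in lactation (SD, n = 3 each). Among the genes that rose, the share within 2-fold of the virgin mean (72.4%) was not above that of all genes (76.4%). Igf1, Pdgfc and Slc40a1 averaged 45.7 ± 16.5, 45.1 ± 14.9 and 669 ± 345 CPM after weaning, against 8.2 ± 3.33, 8.58 ± 1.99 and 96.3 ± 39.8 CPM in virgin libraries.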

How the data were processed

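RNA of sorted ductal macrophages was sequenced in 12 libraries, 3 from each of 4 stages, and the authors deposited raw counts per gene under Entrez gene numbers, made with featureCounts against mm10 per the submitters' processing notes. The aligner, the strand setting and the treatment of reads shared between near-identical genes are not stated in the labels or files used here. The 12 deposited per-sample tables held the same counts as the table of the whole series, and no 2 libraries were identical.

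Of 27179 genes in the table, 25275 (93%) matched a RefSeq symbol (GRCm38.p6); the others took at most 0.825% of a library's counts and stayed in the fit. Counts were tested with edgeR 4.0.16 (R 4.3.3): TMM scaling, its default filter on low counts by stage, a mean per stage over all 12 libraries, robust quasi-likelihood dispersion, and the contrast post-weaning minus lactating, with Benjamini-Hochberg adjustment over the 12672 genes tested. Genes at an adjusted p under 0.05 are said to rise, fall or be called. The common biological coefficient of variation was 0.856. CPM were computed from the TMM-scaled library sizes. The standard error given with a log2 fold change was not taken from the fit directly. It is the size of the log2 fold change divided by the square root of the edgeR F statistic. A fold change against a stage with no count was bounded with a floor of 3 counts over the group, and ratios with 1 to 3 counts carry a 95% interval; both cover counting error only. The steps were tested on simulated counts. These held no outlying library such as Lactating replicate 3, so they cannot say how far it alters the calls.

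The members and gene lists were chosen with earlier results of these data known. Genes were named by rule, 57 in all: the 10 largest rises and 10 largest falls without overlap whose log2 CPM averaged at least 3, up to 4 called members of each list with the smallest adjusted p, and a short fixed set, of which 1 gene is not reported here; 45 more were named after their values were seen. Alternatives were DESeq2 1.42.0, limma 3.58.1 voom with and without quality weights, other scalings and filters, a test against a 2-fold change, a replicate block, fits to fewer libraries, and leaving out each library. The labels do not say whether libraries came from separate mice, so p-values measure the spread between libraries. In the main fit this spread was estimated over all stages, virgin and pregnant libraries included. A fit to the compared libraries alone called 3 genes, against 117 in the main fit.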

Additional observations from a re-analysis of the deposited data

How the results depend on the processing

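Against 117 genes changed, 58 higher and 59 lower after weaning, DESeq2 called 919 (587 higher, 332 lower), limma-voom 211 (129 higher, 82 lower) and voom with quality weights, which gave Lactating replicate 3 a weight of 0.128, 407 (149 higher, 258 lower). Library totals in place of scaling factors, an alternative chosen after seeing the data, gave 92 higher and 32 lower. The test against a 2-fold change called 24 (19 higher, 5 lower). A fit to the 6 libraries alone called 3, of which 0 were higher by edgeR, with 1175 genes at an unadjusted p under 0.05, and a fit to 5 of them without Lactating replicate 3 called 307 (122 higher, 185 lower). Leaving out 1 library gave 26 to 242 changed genes, 17 to 128 higher and 9 to 130 lower: 242 without Lactating replicate 3, 178 without Lactating replicate 1, 111 without Lactating replicate 2, and 44, 26 and 31 without Post-weaning replicates 1, 2 and 3. The cause of these shifts was not tested. All 117 genes kept their sign under every one of these alternatives, other scalings and filters included. Of the 117, 98 were also called by limma-voom, 101 with quality weights, 116 by DESeq2 and 2 in the fit to the 6 libraries alone. Cxcl3 was called in that last fit (edgeR adjusted p = 0.00885). Ccl9, Cd207, Fdps, Oasl1, Malt1, Fos, Dusp6 and Scd1 were not (adjusted p = 0.0761 to 0.12). The fits that left out 1 library kept the virgin and pregnant libraries, so they do not test the use of the spread of those stages. A replicate block called 42 genes (26 higher, 16 lower), 40 of them among the 117; same-numbered libraries of the stages did not deviate together (r = -0.0683, 0.0384 and -0.0149 across genes), so the numbers were not taken to pair the libraries.

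Signs changed only in genes that were not called with all libraries. Cd68, at -0.01, became 0.03001 with DESeq2, 0.02997 with RLE scaling, 0.157 with voom, 0.01063 with scaling without milk and ribosomal genes, 0.261 with library totals, 0.02324 with no filter, 0.01509 with 6 libraries, 0.009 with a 5 CPM filter and 0.03956 with the replicate block, and ran from -0.29 to 0.24 with 1 library left out. Cd74 became 0.13 with voom, 0.18 with library totals and 0.0017 with the block, and ran from -0.46 to 0.23 with 1 library left out. Csf1r became 0.05278 with library totals and ran from -0.56 to 0.04567. Adgre1 became -0.25 with quality weights and -0.32 with 5 libraries and ran from -0.28 to 0.40. Itgam became 1.31 with voom and ran from -2.14 to 0.97, and H2-Ab1 ran from -0.65 to 0.02182 with 1 library left out. Il6 became 0.15 and Ptgs2 1.28 with voom. With 3 libraries a stage, the spread between them and 6926273 to 11576516 counts each limit what could be detected in low or variable genes.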

Other observations

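The genes of 3 nutrient transporters and 2 enzymes of phospholipid synthesis fell after weaning. They were chosen after their values were seen and stand for no wider group; Slc40a1, another transporter gene, rose. Slc38a1, which encodes a glutamine transporter, had 47.1, 43.5 and 45.6 CPM after weaning, against 204, 236 and 113 CPM in lactation (log2 fold change -2.02 ± 0.26, edgeR adjusted p = 0.00572; -2.21 ± 0.19 without Lactating replicate 3, adjusted p = 0.000379). The post-weaning libraries were close to one another, and the call held in all 6 fits that left out 1 library. Slc1a5, the gene of another glutamine transporter, had 37.5, 48.7 and 44.6 CPM after weaning, against 181, 137 and 165 CPM in lactation (log2 fold change -1.88 ± 0.34, adjusted p = 0.0297; -1.80 ± 0.37 without Lactating replicate 3, adjusted p = 0.0327). Slc15a3, a lysosomal peptide and histidine transporter gene, had 68.1, 67.5 and 102 CPM after weaning, against 227, 272 and 161 CPM in lactation (log2 fold change -1.47 ± 0.29, adjusted p = 0.0396; -1.59 ± 0.28 without Lactating replicate 3, adjusted p = 0.0168). Pcyt1a and Pcyt2, which encode the rate-setting enzymes of phosphatidylcholine and phosphatidylethanolamine synthesis, had 42.4, 32.8 and 24.7 and 23.4, 36.7 and 39 CPM after weaning, against 115, 112 and 99.2 and 93.7, 128 and 91.5 CPM in lactation (log2 fold change -1.71 ± 0.34 and -1.66 ± 0.31, adjusted p = 0.0406 and 0.0346). The log2 fold changes of these enzyme genes were -1.71 ± 0.36 and -1.68 ± 0.33 without Lactating replicate 3 (adjusted p = 0.0355 and 0.024). Slc15a3 and Pcyt1a were called in 1 and Slc1a5 and Pcyt2 in 2 of those 6 fits, the one without Lactating replicate 3 among them (adjusted p up to 0.197, 0.189, 0.134 and 0.142 in the others).

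Sqstm1, the autophagy receptor gene, had 900, 903 and 986 CPM after weaning, against 2039, 2025 and 2424 CPM in lactation (log2 fold change -1.22 ± 0.18, edgeR adjusted p = 0.00987; -1.07 ± 0.15 without Lactating replicate 3, adjusted p = 0.00475). Prdm1, which encodes the transcription factor BLIMP1, had 71.2, 64.7 and 101 CPM after weaning, against 184, 216 and 299 CPM in lactation (log2 fold change -1.56 ± 0.24, adjusted p = 0.0132; -1.27 ± 0.23 without Lactating replicate 3, adjusted p = 0.0174). Lactating replicate 3 was the highest library in both. Sqstm1 lost its call without any 1 post-weaning library and Prdm1 without Post-weaning replicate 1 or 2 (adjusted p up to 0.079 and 0.0991). Among the rises, Hes1, a target gene of Notch signalling, had 107, 55.5 and 57.4 CPM after weaning, against 11.8, 5.48 and 5.62 CPM in lactation (log2 fold change 3.27 ± 0.42, adjusted p = 0.00572; 3.14 ± 0.47 without Lactating replicate 3, adjusted p = 0.00722), and was called in all 6 fits that left out 1 library. No gene, Hes1 included, was called as higher in the fit to the 6 compared libraries alone. Hpgd, which encodes the enzyme that inactivates prostaglandins, had 667, 919 and 704 CPM after weaning, against 345, 294 and 264 CPM in lactation (log2 fold change 1.34 ± 0.20, adjusted p = 0.00987; 1.31 ± 0.19 without Lactating replicate 3, adjusted p = 0.0067), and lost its call without Post-weaning replicate 2 (adjusted p = 0.0612). Its virgin libraries averaged 764 ± 93.7 and its pregnant libraries 290.5 ± 27.9 CPM (SD, n = 3 each). Ciart, a repressor gene of the circadian clock, had 74.2, 150.3 and 104 CPM after weaning, against 37.1, 28.5 and 17.4 CPM in lactation (log2 fold change 1.99 ± 0.35, adjusted p = 0.0266; 1.80 ± 0.34 without Lactating replicate 3, adjusted p = 0.0212). The labels used here give no time of day, and the call was lost without Lactating replicate 2 or Post-weaning replicate 2 or 3 (adjusted p up to 0.136).

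Dcstamp and Ocstamp, which encode membrane proteins needed for macrophage fusion into osteoclasts, had 179, 164 and 169 and 154, 214 and 222 CPM after weaning, against 1501, 1637 and 508 and 608, 869 and 285 CPM in lactation. All lactating libraries were above all post-weaning ones, and both genes fell without Lactating replicate 3 only (edgeR adjusted p = 0.0212 and 0.0155, against 0.0678 and 0.0992 with it).

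Over 82 ribosomal protein genes tested, the median was -0.57 on the log2 scale, and 44 of them were lower after weaning without overlap, against 8.76% of all genes. Rpl8 was the 1 of the 82 called, against 0.923% of all genes. None was called without Lactating replicate 3, with a median of -0.47. Mitochondrial transcripts took 2.09, 1.42 and 1.18% of the counts after weaning, against 1.56, 2.19 and 3.02% in lactation.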
